A study of Mus musculus with 15 samples.

Results

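C/EBPβ was set against C/EBPα in the same fibroblast line, to see which genes separate the cells that express each factor. The comparison used 6 of the 15 arrays measured, 3 of cells expressing human C/EBPβ (called CEBPB cells) and 3 of cells expressing human C/EBPα (called CEBPA cells), chosen by their titles alone. The other 9 arrays, of cells with an empty vector, with C/EBPδ (CEBPD) or with C/EBPε (CEBPE), entered the estimate of the spread and are given where they help to place a level. All cells were NIH 3T3, an immortal mouse fibroblast line, stably carrying a plasmid in which a metallothionein promoter, which zinc switches on, drives the human cDNA, or, in vector cells, no insert. Every group, vector included, had the antibiotic-selected plasmid and received zinc sulphate for 16 h before total RNA was taken, so the zinc itself is common to both sides. No group without zinc and none without plasmid is analysed here.

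The labels call the transfectants polyclonal and the replicates triplicate clones. The sources used here do not say whether a group's 3 arrays go back to separate transfections. The p-values therefore rest on the spread of these cultures, which may leave out that between transfections. A difference between transfected pools and an effect of the factor cannot be told apart. The amount of each introduced protein was followed by immunoblot during screening, per the labels, but no protein value is analysed here, and the array reads mouse RNA. How much of a difference between CEBPB and CEBPA cells goes with the amount of factor in the cell was not tested.

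C/EBPs are basic leucine zipper proteins that bind DNA as dimers with themselves or with each other, through nearly identical basic regions, and differ mostly in the activating and regulatory parts outside them. In fat precursors C/EBPβ and C/EBPδ appear first and C/EBPα later, where it sustains the adipocyte programme together with the nuclear receptor PPARγ. C/EBPα is also a factor of hepatocytes and of granulocyte development and slows proliferation, while C/EBPβ is best known for the acute phase response and for cytokine genes in macrophages and liver.

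The binding site shared by the family is a palindrome read as TTGC on one side and GCAA on the other. Promoter sequences from RefSeq (GRCm38.p6) were searched on both strands for the relaxed form TTGCNNAA (on the opposite strand the fixed letters read TT, 2 free bases, GCAA) and for GAANNTTC, a pair of the units bound by heat shock factors. The 4 stretches printed here are the 250 bases before the annotated start, 5′ to 3′ on the strand of the gene. They come from 3 genes among the largest differences towards CEBPA cells and from Hspa1b, the largest difference towards CEBPB cells. All 4 hold a match, so they are examples and do not show how common a match is. Among other genes with large differences towards CEBPA cells, Serpinb2 and Slfn2 had TTGCNNAA, and S100a8, Serpinb9e, Slfn4, Abhd5 and Abca1 did not. Capitals mark the matches. Saa3, an acute phase serum amyloid A (chr7:46715677-46715926, minus strand), has TTATGCAA beginning 99 bases before its start. Tgm3, an epidermal transglutaminase (chr2:130012090-130012339, plus strand), has TTGCATAA at 160 bases. Pparg, the gene of PPARγ, has 3 annotated starts, and the stretch before the third (chr6:115421816-115422065, plus strand) holds TTGCCAAA at 215 bases and TTTTGCAA at 16 bases. The stretches before its other starts had no TTGCNNAA. Hspa1b, an inducible chaperone of the Hsp70 family (chr17:34959239-34959488, minus strand), holds GAAGATTC at 104 bases. A match is a stretch of letters and not a site shown to be bound.
Saa3: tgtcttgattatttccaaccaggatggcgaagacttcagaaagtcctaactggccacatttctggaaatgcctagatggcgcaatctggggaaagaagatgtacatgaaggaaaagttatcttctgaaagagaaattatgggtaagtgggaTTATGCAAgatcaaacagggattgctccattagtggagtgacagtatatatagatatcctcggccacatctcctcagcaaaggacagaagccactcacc
Tgm3: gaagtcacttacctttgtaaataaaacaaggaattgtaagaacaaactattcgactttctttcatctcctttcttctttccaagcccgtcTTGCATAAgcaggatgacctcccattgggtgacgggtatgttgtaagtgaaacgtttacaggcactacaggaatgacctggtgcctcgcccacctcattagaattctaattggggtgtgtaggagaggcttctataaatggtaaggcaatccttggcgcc
Pparg: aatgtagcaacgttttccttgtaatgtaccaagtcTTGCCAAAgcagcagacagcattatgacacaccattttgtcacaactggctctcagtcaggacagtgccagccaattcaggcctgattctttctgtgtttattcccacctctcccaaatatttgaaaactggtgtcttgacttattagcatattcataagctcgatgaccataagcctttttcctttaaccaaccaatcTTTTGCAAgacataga
Hspa1b: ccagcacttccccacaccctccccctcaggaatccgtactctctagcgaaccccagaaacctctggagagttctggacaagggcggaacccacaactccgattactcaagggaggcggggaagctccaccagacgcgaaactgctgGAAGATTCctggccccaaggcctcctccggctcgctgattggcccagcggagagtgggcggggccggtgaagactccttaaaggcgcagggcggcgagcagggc

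Among the genes that separated the factors, Lpl, Hp, Saa3, S100a8 and Cd1d1 had higher signals in CEBPA cells, and Hspa1b, Dnajb1, Fos, Gadd45g, Col1a1 and F3 had higher signals in CEBPB cells. Of 6963 probe sets tested, limma called 199 at an adjusted p under 0.05 (2.86%), of which 96 were higher in CEBPB cells (1.38%) and 103 were higher in CEBPA cells (1.48%). Read by 1 probe set per gene, 148 of 5338 genes were called (2.77%), 76 of them higher in CEBPB cells (1.42%) and 72 lower (1.35%). These shares, and the median of 0.04 over all genes tested, are the background for every list count below. Without CEBPB replicate 2 the 96 became 62, and without the arrays numbered 1 of all groups the 103 became 62. The lost calls given below for single genes are mostly those on leaving out 1 array. They are not a full list, and many of these calls were also lost under other settings. The arrays of CEBPB and CEBPA cells did not overlap for 1189 probe sets (17.1%), the 199 called ones among them. Differences were unequal in size on the 2 sides. Beyond 2-fold lay 30 of the called probe sets higher in CEBPB cells and 58 of those higher in CEBPA cells, and the extremes on the log2 scale were 2.60 and -4.56. Over all probe sets tested the median difference was 0.03 and 92.4% lay within 1.5-fold. All differences are log2 CEBPB minus log2 CEBPA, so a negative value means more signal in CEBPA cells, and they were taken after values under 189.652 units, the pooled 20th percentile, had been raised to it. This floor shortens the folds of dim genes. Of the 72 genes higher in CEBPA cells, 6 (Tgm3, Pparg, Serpinb2, Abcd2, Slfn4 and Lyz2) passed the signal filter through CEBPA arrays alone. They were tested because they are high there, so the filter set their direction, and their calls support no count. The counts given here include them and were not made again without them.

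**Figure D1:**
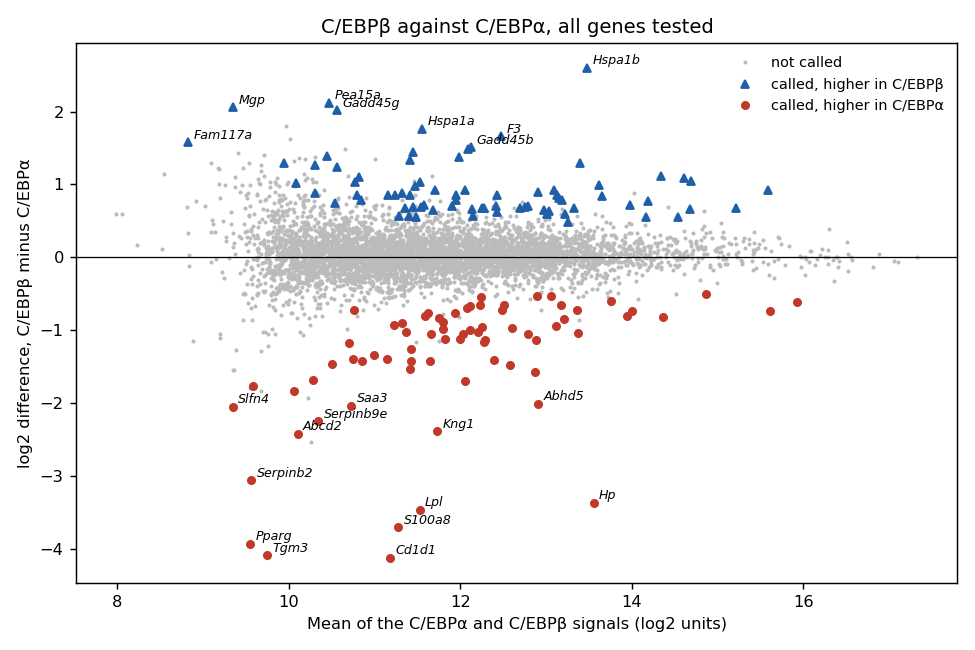
Difference between CEBPB and CEBPA cells (log2, vertical axis) against the mean signal of the 6 arrays (log2 units, horizontal axis), 1 point per gene tested, with called genes as blue triangles (higher in CEBPB cells) or red circles (higher in CEBPA cells). The called genes reach below -4 for Cd1d1 and Tgm3 and up to 2.60 for Hspa1b, while most grey points lie near 0.

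Array medians and control ratios overlapped between the groups compared. Deposited array medians ran from 992.25 to 1149.7 units over the 15 arrays. Correlations of log2 values ranged from 0.958 to 0.963 among CEBPA arrays, from 0.963 to 0.973 among CEBPB arrays and from 0.951 to 0.974 between the groups. The ratio of the 3′ to the 5′ control probe sets for Gapdh, a sign of RNA integrity, was 0.908 to 0.982 in CEBPA cells and 0.891 to 0.945 in CEBPB cells. Fibroblast markers were present throughout, with 11 of 13 on the array tested. Their summed signal was 131406 to 164355 units in CEBPA cells, 179637 to 243021 in CEBPB cells and 139245 to 183037 in vector cells, so the sums of the factors did not overlap. In units the largest differences were in Col1a1 (means 17011 in CEBPA and 36606 in CEBPB cells) and Col1a2 (18390 and 38025). On the log2 scale Col3a1 differed most of the markers tested (1.24). The means of Fn1 (12837 and 11378), Dcn (11995 and 9396), Vim and Lum were lower in CEBPB cells, and those of the other markers were higher. Of 11 granulocyte and macrophage markers, 6 (Ptprc, Itgam, Mpo, Elane, Adgre1 and S100a9) were under the signal filter. Of the other 5, the receptors Csf1r (-0.13) and Csf3r (0.07) were not called. The adipocyte markers Adipoq, Fabp4, Retn and Cidec were all under the filter. In RNA of whole cultures, fewer cells of a kind and less RNA per cell cannot be told apart.

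Of the endogenous family, Ddit3 alone was called. Cebpb read 6234, 9718 and 12772 units in CEBPA cells and 7578, 14677 and 14079 in CEBPB cells (log2 0.34, SE 0.33, adjusted p = 0.824). Cebpd and Cebpg, the latter a member without an activation domain, differed by 0.12 (adjusted p = 0.925) and 0.14 (0.873). Cebpa lay under the filter, at 724 ± 199 units in CEBPA cells and 779 ± 271 in CEBPB cells (SD, n = 3). These probe sets were made for mouse transcripts, and whether they also read the human cDNAs was not tested. Ddit3, the stress-induced relative CHOP, is one of the 4 members tested. It read 1930, 3281 and 2147 units in CEBPA cells and 4162, 4982 and 4474 in CEBPB cells, a 1.90-fold difference (adjusted p = 0.00488). Vector cells gave 10866 ± 1577 units for Ddit3, above both. Without the arrays numbered 1, Ddit3 was not called (adjusted p = 0.0608).

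Lipid genes gave some of the widest gaps towards CEBPA cells, but they were few. Of 16 tested genes of adipocyte differentiation and lipid storage, 4 were higher in CEBPA cells, 0 were higher in CEBPB cells, and the median difference was 0.01, against 0.04 over all genes tested. Pparg, among the 4, passed the filter through CEBPA arrays alone. Pparg read 2978, 2662 and 3310 units in CEBPA cells and 39.3, 208 and 181 in CEBPB cells. CEBPB cells and vector cells (175, 77.8 and 21.3 units) overlapped at or near the floor, and CEBPA cells stood 15.2-fold above CEBPB cells on the floored scale (log2 -3.93, SE 0.60, adjusted p = 0.000662). With no floor the call of Pparg was lost (adjusted p = 0.283), as it was without the arrays numbered 1 (0.0532). Lpl encodes the enzyme that hydrolyses triglyceride in circulating lipoproteins. Its signals were 9946, 8228 and 11343 units in CEBPA cells and 781, 948 and 925 in CEBPB cells, 11.1-fold apart (log2 -3.47, SE 0.23, adjusted p = 6.92e-08). Vector cells had 254 ± 33.4 units, under every CEBPB array. On a second Lpl probe set the factors differed by -3.38, but there CEBPB cells (592 ± 185 units) overlapped vector cells (573 ± 159).

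Dgat1, which catalyses the last step of triglyceride synthesis, read 4864, 6087 and 7133 units in CEBPA cells against 2161, 3137 and 3023 in CEBPB cells (2.18-fold, adjusted p = 0.00392). Angptl4, a secreted inhibitor of lipoprotein lipase and a PPAR target, was 2.62-fold higher in CEBPA cells (adjusted p = 0.0169). Its other 2 probe sets were not called, at -0.90 (adjusted p = 0.135) and 0.48 (0.886). The call was lost without CEBPA replicate 1 (0.0787) or 3 (0.0513) and without CEBPB replicate 2 (0.101) or 3 (0.0914). The other 12 tested members, among them Fasn (0.00), Scd1 (0.11), Srebf1 (-0.16) and Plin2 (-0.64), were not called. Outside that list, Abhd5, the co-activator of adipose triglyceride lipase, read 12989, 16181 and 16779 units in CEBPA cells and 3302, 4930 and 3338 in CEBPB cells, where vector cells had 3310 ± 743. The difference was 4.02-fold (log2 -2.01, SE 0.20, adjusted p = 7.77e-06).

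The lipid transporters Abcd2 and Abca1 were among the 15 largest differences towards CEBPA cells. Abcd2, which carries very long-chain fatty acids into peroxisomes, read 2530, 2051 and 3020 units in CEBPA cells against 384, 622 and 432 in CEBPB cells (5.34-fold, adjusted p = 0.00158). It was the 1 called of 21 tested fatty acid oxidation genes, whose median was 0.01, and it was lost without the arrays numbered 1 (adjusted p = 0.0771). Abcd2 passed the filter through CEBPA arrays alone, so its call supports no count for that list. Abca1, the cholesterol efflux pump, read 1862, 1265 and 1076 units against 490, 251 and 514 (3.42-fold, adjusted p = 0.0147). Its call was lost without CEBPA replicate 1 (0.0839), without CEBPB replicate 2 (0.0805) and without the arrays numbered 1 (0.176). None of 16 cholesterol synthesis genes was called by limma, 0 had an unadjusted p under 0.05, and 0 were called under any alternative. The share called over all genes tested was only 2.77%.

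By the median of the members tested, acute phase genes were the list furthest from 0, but only 8 of the 25 on the array passed the signal filter. All 8 tested members had a negative difference, 4 of them called, with a median of -0.83 against 0.04 over all genes tested, and the same number was called under every alternative. Hp, the haemoglobin scavenger haptoglobin, read 29182, 41723 and 45342 units in CEBPA cells and 3186, 3499 and 4524 in CEBPB cells (10.3-fold, log2 -3.37, SE 0.20, adjusted p = 3.33e-08). The CEBPB values for Hp lay above those of vector cells, which were 1770, 1164 and 1216. Saa3, shown above with its TTATGCAA, read 3200, 3573 and 3545 units in CEBPA cells and 910, 857 and 750 in CEBPB cells, a 4.11-fold gap (adjusted p = 0.000228). Here CEBPB cells were below vector cells, whose lowest array had 1132.

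Kng1, the kininogen from which bradykinin is cut, read 8289, 7336 and 7390 units in CEBPA cells against 1074, 1957 and 1489 in CEBPB cells (5.24-fold, adjusted p = 0.000445). Ptx3, a soluble pattern recognition protein, differed 2.20-fold, with 10305, 9237 and 14071 units against 6034, 4342 and 4810 (adjusted p = 0.0023). In both genes the lowest CEBPA array was above the highest CEBPB array. Saa2 (-0.53), Lcn2 (-0.21), Mt1 (-0.13) and Cp (-0.07) were not called.

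Myeloid genes divided. S100a8, a subunit of the granulocyte protein calprotectin, read 8457, 7961 and 9759 units in CEBPA cells and 526, 528 and 1061 in CEBPB cells (13.1-fold, log2 -3.71, SE 0.27, adjusted p = 3.18e-07). CEBPB and vector cells overlapped, the latter at 680 ± 142. Lyz2, the lysozyme of macrophages and granulocytes, was 2.75-fold higher in CEBPA cells, at 2418 ± 362 against 877 ± 94.6 units (adjusted p = 0.0132). That call was lost without CEBPA replicate 1 (0.068) or 3 (0.0561), without CEBPB replicate 1 (0.0606) and without the arrays numbered 1 (0.184). Cd68, a lysosomal protein of macrophages, went the other way, with 715, 751 and 833 units in CEBPA cells and 1432, 1475 and 1749 in CEBPB cells (adjusted p = 0.000643). Vector cells had 3103 ± 244 units of Cd68, above both. With only the CEBPA and CEBPB arrays in the fit, Cd68 was not called (0.056). The 10 tested members of the granulocyte and myeloid list had a median of 0.02, with 2 called lower and 1 higher in CEBPB cells. Lyz2, among the 2, passed the filter through CEBPA arrays alone. The summed signal of the 11 granulocyte and macrophage markers was 20536 to 24684 units in CEBPA cells, 11228 to 13632 in CEBPB cells and 13828 to 15118 in vector cells. Most of that gap is S100a8: over the other 10 markers the sums were 12078 to 14925, 10699 to 12570 and 13114 to 14380 units, and CEBPA cells overlapped both other groups.

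On the floored scale the widest gap of the named genes was at Cd1d1, a relative of MHC class I that presents lipids to natural killer T cells. It read 10195, 9771 and 9228 units in CEBPA cells and 564, 507 and 598 in CEBPB cells, 17.5-fold apart (log2 -4.13, SE 0.29, adjusted p = 2.19e-07). Vector cells had 129, 179 and 261 units. Tgm3, which crosslinks proteins of the skin barrier and hair, read 3461, 3959 and 4189 units in CEBPA cells. In CEBPB cells it read 44.7, 321 and 63.7, with 2 of 3 arrays at the floor, as were all 3 vector arrays (log2 -4.09, SE 0.60, adjusted p = 0.000564). With no floor the difference was -5.31 for Tgm3 and -4.71 for Pparg, beyond the -4.13 of Cd1d1, so the order of these 3 genes depends on the floor.

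Of 21 tested genes of MHC class I and the interferon response, 5 were higher in CEBPA cells and 3 in CEBPB cells, with a median of 0.24. Slfn4, among the 5, passed the filter through CEBPA arrays alone. Beside Cd1d1, Ifi204, a DNA sensor of the interferon-inducible p200 family, read 10730, 12784 and 15464 units in CEBPA cells against 3828, 5148 and 4004 in CEBPB cells (3.00-fold, adjusted p = 0.000228). CEBPB cells overlapped vector cells, at 4241 ± 907 units. Slfn4 and Slfn2, Schlafen genes of myeloid and lymphoid cells, were 4.15-fold and 3.57-fold higher in CEBPA cells (adjusted p = 0.0223 and 0.0387). The Slfn4 call was lost without any one of CEBPA replicates 1 to 3 or CEBPB replicate 2 (0.0701 to 0.114), and without the arrays numbered 1 (0.161). The Slfn2 call was lost without any one of 5 arrays, all but CEBPB replicate 3 (0.0513 to 0.213), although its second probe set was called (-3.04, adjusted p = 0.000261). For Slfn2 the call was also lost with no floor (0.0936), no filter (0.11), array weights (0.0537) and the unmoderated test (0.0928). Close relatives stand beside Slfn2, Slfn4 and Ifi204 in the genome, and the probe sets may not tell them apart.

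On the CEBPB side of the same list were Tapbp, the chaperone tapasin that loads peptides onto MHC class I, with 6738, 5351 and 6887 units in CEBPA cells and 10792, 13317 and 11877 in CEBPB cells (1.90-fold, adjusted p = 0.000359), and the interferon regulatory factor Irf1 (1.64-fold, adjusted p = 0.00345). The other 2 probe sets of Tapbp were not called, at 0.52 (adjusted p = 0.0822) and 0.43 (0.476). Irf1 was not called without the arrays numbered 1 (0.0559). Gbp3, a guanylate-binding protein (0.88, adjusted p = 0.0476), and Ifi202b, a p200 gene higher in CEBPA cells (-1.05, adjusted p = 0.0106), were the other called members. Gbp3 was lost without any one of the 6 arrays (0.0648 to 0.278), and Ifi202b without CEBPA replicate 3 (0.0723) or CEBPB replicate 1 (0.0583). The class I heavy chains H2-K1 (0.25) and H2-D1 (0.30) and their partner B2m (0.43) were not called.

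The serine protease inhibitors Serpinb2 and Serpinb9e were among the 15 largest differences towards CEBPA cells. Serpinb2, plasminogen activator inhibitor 2, read 2133, 2614 and 1820 units in CEBPA cells and 205, 306 and 276 in CEBPB cells (8.37-fold, adjusted p = 0.00686). CEBPB values of Serpinb2 overlapped those of vector cells (145, 383 and 139), and the call was lost without CEBPA replicate 2 (0.0684) and without the arrays numbered 1 (0.0836). Serpinb9e, one of a cluster of near-identical genes that the probes may not separate, read 2842, 3015 and 2639 units against 576, 528 and 684 (4.77-fold, adjusted p = 0.000155). Vector cells, at 1122 ± 108 units, lay between the factors for Serpinb9e.

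Signalling molecules were found on both sides. Among 25 tested growth factors and receptors, Ereg, Fgf7 and Ghr were higher in CEBPA cells, Hbegf and Fgfr1 were higher in CEBPB cells, and the median was 0.13. Over all genes tested, 1.35% were called higher in CEBPA cells and 1.42% in CEBPB cells, with a median of 0.04. The epidermal growth factor relative Ereg read 2486, 2165 and 2033 units in CEBPA cells and 563, 796 and 740 in CEBPB cells (3.21-fold, adjusted p = 0.00018). Hbegf, which binds the same receptor, ran opposite, with 2141, 1848 and 2075 units in CEBPA cells and 3592, 4206 and 3216 in CEBPB cells (1.81-fold, adjusted p = 0.00302). For Hbegf both lay below vector cells, at 8536 ± 1073, whereas for Ereg CEBPB cells overlapped vector cells at 888 ± 316. Fgf7, a fibroblast product that acts on epithelium, read 4500, 5860 and 5470 units in CEBPA cells and 1770, 2293 and 1824 in CEBPB cells (2.69-fold, adjusted p = 2.42e-05). Fgfr1, a receptor, was 1.55-fold higher in CEBPB cells (adjusted p = 0.0177), a call lost without any one of CEBPA replicates 1 to 3 or CEBPB replicate 2 or 3 (0.0503 to 0.111). Ghr, the growth hormone receptor (-0.70, adjusted p = 0.0207), was lost without any one of 5 arrays, all but CEBPA replicate 1 (0.0546 to 0.117).

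Neutrophil-attracting chemokines were among 17 tested chemokine and cytokine genes, of which 3 were higher in CEBPA cells and 2 in CEBPB cells (median -0.11). The shares over all genes tested were 1.35% and 1.42% (median 0.04). Cxcl5 read 11157, 9638 and 9766 units in CEBPA cells and 4821, 4881 and 5013 in CEBPB cells (2.07-fold, adjusted p = 0.000124). For Cxcl1 the values were 12234, 9799 and 15303 against 6411, 5935 and 6730 (1.93-fold, adjusted p = 0.000648). CEBPB cells exceeded vector cells for Cxcl5 (2431 ± 314) on every array. Osmr, the oncostatin M receptor, was 1.65-fold higher in CEBPA cells (adjusted p = 0.0147), a call lost without CEBPA replicate 3 (0.0643) or CEBPB replicate 1 (0.0625) or 3 (0.096). Ccl8, a monocyte chemokine, was 1.61-fold higher in CEBPB cells, at 6296 ± 575 against 3916 ± 355 units (adjusted p = 0.0062), and its relative Ccl9 differed by 0.86 (adjusted p = 0.0221), lost without CEBPA replicate 2 or 3 or CEBPB replicate 2 or 3 (0.0666 to 0.135).

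Single members of other lists were also higher in CEBPA cells. Nfil3, a bZIP repressor tied to the circadian clock and to cytokine genes, read 2930, 3914 and 4161 units there and 1211, 1641 and 1326 in CEBPB cells (2.63-fold, adjusted p = 0.000648). Mgst1, a membrane-bound glutathione transferase, read 5231, 5619 and 5197 against 2432, 2702 and 2273 (2.17-fold, adjusted p = 0.000119). Pfkl, the liver form of phosphofructokinase, was 1.67-fold higher (adjusted p = 0.0086), the 1 called of 17 glycolysis genes, whose median was -0.25. It was not called without CEBPB replicate 1 (0.0546) or 3 (0.0559), and up to 5 glycolysis genes were called lower in CEBPB cells under other settings. Sod2, the mitochondrial superoxide dismutase, differed by -0.77 (adjusted p = 0.0411), lost without any one of 5 arrays, all but CEBPA replicate 1 (0.0781 to 0.193).

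**Figure D2:**
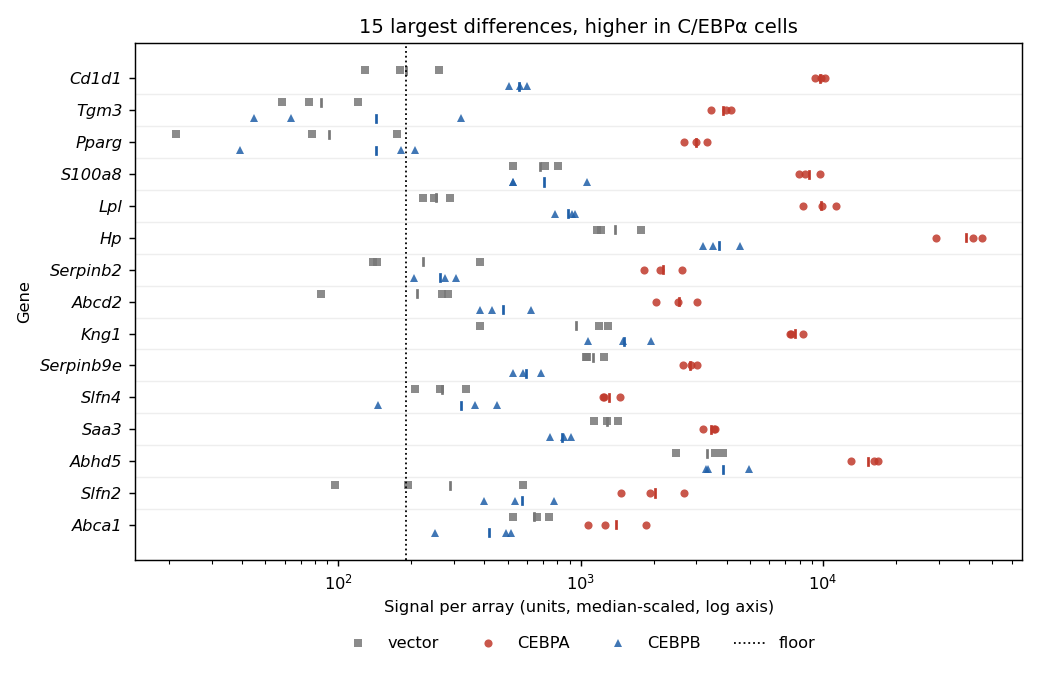
Signal of each array (median-scaled units, log axis) for the 15 genes with the largest called differences towards CEBPA cells, in vector (grey squares), CEBPA (red circles) and CEBPB (blue triangles) cells, with short vertical bars at the group means and a dotted line at the floor of 189.652 units. The 3 red circles lie to the right of all blue triangles in every gene, and the blue triangles of Tgm3 and Pparg lie at or near the floor.

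Some inducible chaperones were higher in CEBPB than in CEBPA cells. Of 22 tested heat shock chaperone genes, 6 were higher in CEBPB cells and 0 lower, with a median of 0.17 and a positive difference in 20, and 5 to 7 were called under the alternatives. Over all genes tested, 1.42% were called higher and 1.35% lower, with a median of 0.04. Hspa1b read 5405, 3760 and 4795 units in CEBPA cells and 27271, 27457 and 28930 in CEBPB cells, 6.06-fold apart (log2 2.60, SE 0.14, adjusted p = 2.21e-08). Vector cells had 74070, 86386 and 79416 units, so that both factors lay below the vector level and CEBPA cells lay furthest. Hspa1a, its near-identical neighbour, whose signal the probes may share, read 1237, 1753 and 1957 units in CEBPA cells and 5056, 5835 and 5608 in CEBPB cells (3.39-fold, adjusted p = 0.00327), with 27476 ± 2069 in vector cells.

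The co-chaperone Dnajb1, which delivers clients to Hsp70, read 2110, 2144 and 3383 units in CEBPA cells against 5968, 7379 and 5999 in CEBPB cells (2.58-fold, adjusted p = 0.00051). Cryab, the small heat shock protein αB-crystallin, read 2069, 1432 and 1648 units against 4273, 4021 and 4642 (2.54-fold, adjusted p = 3.64e-05). In both, vector cells were higher again, at 25800 ± 2805 units for Dnajb1 and 11484 ± 970 for Cryab. Hsph1 (0.66, adjusted p = 0.00502) and Zfand2a (0.88, adjusted p = 0.0137) were the other called members, Zfand2a, whose second probe set was not called (1.22, adjusted p = 0.243), being lost without CEBPA replicate 2 (0.0867) or CEBPB replicate 1 (0.0502) or 3 (0.0759). The constitutive Hspa8 (0.13), the cytosolic Hsp90aa1 (0.18), and the mitochondrial Hspd1 (0.20) and Hspe1 (0.23) were not called. Of 31 genes of the integrated stress and unfolded protein responses, Ddit3 alone was called, and the endoplasmic reticulum chaperone Hspa5 differed by 0.07.

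Immediate early genes are switched on within minutes of a stimulus. Of 32 tested, 8 were higher in CEBPB cells and 1, Fosl1, was lower, with a median of 0.20. Among all genes tested the shares were 1.42% and 1.35%, and the median was 0.04. Fos, a partner in the AP-1 dimer, read 647, 1046 and 765 units in CEBPA cells and 1706, 1838 and 2308 in CEBPB cells (2.41-fold, adjusted p = 0.00157). Its vector signals, 8119, 13321 and 7913 units, were above every array of both factors. Dusp1, a phosphatase that switches off MAP kinases, read 5794, 5367 and 5550 units in CEBPA cells and 8835, 9050 and 9208 in CEBPB cells (1.62-fold, adjusted p = 0.0014), with 20629 ± 1013 in vector cells. Egr1 (0.67, adjusted p = 0.0148), Klf4 (0.78, adjusted p = 0.00174), Plk2 (1.12, adjusted p = 0.00548) and Btg2 (0.71, adjusted p = 0.00422) were called in the same direction. Egr1 was lost without CEBPA replicate 2 or 3 or CEBPB replicate 2 (0.0637 to 0.0915), and Fosl1 (-0.53, adjusted p = 0.0132) without CEBPA replicate 3 or CEBPB replicate 1 or 3 (0.0515 to 0.0644). Jun (0.17), Myc (-0.01) and Atf3 (-0.21) were not called.

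Gadd45 genes, which encode small stress sensors that bind kinases and cell cycle proteins, did not move as 1 family. Gadd45g read 626, 905 and 705 units in CEBPA cells and 2433, 4189 and 2610 in CEBPB cells (4.05-fold, adjusted p = 0.000229). For Gadd45b the values were 4077, 1664 and 2425 against 6579, 8376 and 6931 (2.85-fold, adjusted p = 0.000725). Vector cells exceeded both factors for each, at 16233 ± 4916 units for Gadd45g and 15935 ± 1453 for Gadd45b. Gadd45a ran opposite, with 9392, 11051 and 14363 units in CEBPA cells and 6482, 8138 and 7295 in CEBPB cells (-0.65, adjusted p = 0.0357). That call was lost without CEBPA replicate 2 or 3 or CEBPB replicate 1 or 3 (0.0907 to 0.195). All genes tested had 1.42% called higher in CEBPB cells, 1.35% called lower and a median of 0.04. Of 16 tested growth arrest and p53 target genes, 3 were higher in CEBPB cells and 2 lower, with a median of 0.23. The second of the lower ones was Cdkn2c, the p18 inhibitor of cyclin D kinases (-0.85, adjusted p = 0.0354), lost without CEBPA replicate 2 or 3 or CEBPB replicate 1 or 3 (0.103 to 0.174). The p21 gene Cdkn1a differed by 0.39 (adjusted p = 0.298). With limma 0 of 49 cell cycle and replication genes were called, 4 passed an unadjusted 0.05, and at most 1 was called under an alternative. The share called in either direction over all genes tested was 2.77%.

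Some fibrillar collagen genes had more signal in CEBPB cells. Of 20 tested collagen genes and their processing enzymes, 4 were higher in CEBPB cells and 0 lower, with a median of 0.18, and the number ran from 2 to 5 over the alternatives. The shares over all genes tested were 1.42% higher and 1.35% lower, with a median of 0.04. Col1a1, a chain of fibrillar collagen I, read 13836, 17526 and 19672 units in CEBPA cells and 30070, 46954 and 32793 in CEBPB cells (2.13-fold, adjusted p = 0.00324). Vector cells had 18140, 26189 and 20252 units, which overlapped CEBPA cells and not CEBPB cells. A second Col1a1 probe set differed by 0.57 (adjusted p = 0.0115).

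Col3a1, of the fibrillar collagen III, read 1021, 793 and 1150 units in CEBPA cells and 2155, 2327 and 2425 in CEBPB cells (2.35-fold, adjusted p = 0.00158), with 1040 ± 196 in vector cells. Its second probe set differed by 0.67 and was not called (adjusted p = 0.366). For Col1a2 the brightest probe set was 2.08-fold higher in CEBPB cells (adjusted p = 0.0118), but the other gave -0.17 (adjusted p = 0.818). The Col1a2 call was lost without CEBPA replicate 1 (0.0639) or CEBPB replicate 2 (0.0721) or 3 (0.0531). Col8a1, of the short-chain type, was 1.61-fold higher (adjusted p = 0.0313), lost without any one of 5 arrays, all but CEBPB replicate 1 (0.0588 to 0.173). Basement membrane collagens Col4a1 (0.16) and Col4a2 (-0.01) and the crosslinking enzyme Lox (0.13) were not called. The 3 fibrillar genes Col1a1, Col1a2 and Col3a1 are also the 3 called fibroblast markers of 11 tested.

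Among 26 tested proteoglycans and matrix glycoproteins, 2 were called, both higher in CEBPB cells, with a list median of -0.05. Bgn, the small leucine-rich proteoglycan biglycan, read 33453, 35028 and 37890 units in CEBPA cells and 58589, 79292 and 66404 in CEBPB cells (1.91-fold, adjusted p = 0.000784), overlapping vector cells at 62209 ± 7629. A second probe set of Bgn gave 0.43 and was not called (adjusted p = 0.297). Mfap5, a microfibril protein, was 1.48-fold higher (adjusted p = 0.0189), lost without CEBPA replicate 2 or 3 or CEBPB replicate 3 (0.0803 to 0.113). Fn1, fibronectin (-0.16), and Dcn, decorin (-0.34), were not called.

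Other secreted and matrix proteins were among the 15 largest differences towards CEBPB cells. Mgp, matrix Gla protein, an inhibitor of calcification, read 443, 391 and 109 units in CEBPA cells and 1062, 1336 and 1675 in CEBPB cells (4.17-fold, adjusted p = 0.0168). Its call was lost without CEBPA replicate 3 (0.0879), in which the gene was at the floor, and without CEBPB replicate 2 (0.0664) or 3 (0.104). The call of Mgp was also lost with no filter (0.0593) and with the unmoderated test (0.0521). Matn2, the matrix adaptor matrilin 2, read 1163, 603 and 847 units against 2149, 2556 and 1959 (2.63-fold, adjusted p = 0.00174). The matricellular proteins Ccn1 and Ccn2 are products of serum-induced, mechanically responsive genes. Ccn1 read 1563, 1763 and 1745 units in CEBPA cells and 4625, 4900 and 4246 in CEBPB cells (2.72-fold, adjusted p = 2.03e-06). Ccn2 read 7122, 6383 and 7045 against 16659, 18575 and 15524 (2.47-fold, adjusted p = 1.07e-05). CEBPB cells overlapped vector cells for Ccn1 (5020 ± 414) and lay above them on every array for Ccn2 (12760 ± 1164).

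The 2 called coagulation genes were higher in CEBPB cells. F3, tissue factor, which starts the clotting cascade, read 3291, 3117 and 3164 units in CEBPA cells and 8683, 11441 and 10397 in CEBPB cells (3.17-fold, log2 1.66, SE 0.15, adjusted p = 2.03e-06). Vector cells, at 5369, 7007 and 5564 units of F3, lay between the factors. Procr, the endothelial protein C receptor, read 2773, 2928 and 3117 units against 5712, 5084 and 5100 (1.80-fold, adjusted p = 0.000372), both far under the 18215 ± 1610 of vector cells. The 9 tested coagulation genes had a median of 0.15. Plat, tissue plasminogen activator, was 1.97-fold higher in CEBPB cells at 3976 ± 592 against 2031 ± 394 units (adjusted p = 0.0137), again under vector cells at 10744 ± 562. It was lost without CEBPA replicate 1 (0.0702) and without CEBPB replicate 2 (0.0805). Of the 15 plasminogen system and matrix protease genes, Plat and Serpinb2, an activator and an inhibitor, were thus called in opposite directions. Serpinb2 passed the filter through CEBPA arrays alone, which set its direction. Prss23, a secreted serine protease, read 3064, 2367 and 2420 units in CEBPA cells against 7572, 6458 and 7778 in CEBPB cells (2.79-fold, adjusted p = 4.52e-05) and overlapped with vector cells at 6902 ± 1445 in the latter.

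The remaining large differences towards CEBPB cells were less even between arrays. Pea15a, a death effector domain protein that holds ERK in the cytoplasm, read 1819, 352 and 285 units in CEBPA cells and 2363, 2437 and 2602 in CEBPB cells (4.35-fold, adjusted p = 0.0137). CEBPA replicate 1 stood well above the other 2 CEBPA arrays, and the call was lost without CEBPA replicate 2 (0.0943) or 3 (0.0861) or CEBPB replicate 3 (0.0572). The call of Pea15a was also lost with no filter (0.112), with the unmoderated test (0.101) and with only the CEBPA and CEBPB arrays in the fit (0.0949). Fam117a read 231, 276 and 258 units against 896, 455 and 1070 (2.98-fold, adjusted p = 0.0152). It was lost with the floor at the 40th percentile (0.49), with only the CEBPA and CEBPB arrays in the fit (0.35) and without CEBPB replicate 1 (0.0806) or 3 (0.113). Cystm1 read 557, 644 and 648 against 1643, 2050 and 1032 (2.46-fold, adjusted p = 0.0412), a call lost under 10 of the 20 alternatives, among them without any one of 5 arrays, all but CEBPB replicate 3 (0.101 to 0.206). Gsta4, a glutathione transferase that clears products of lipid peroxidation, was 2.15-fold higher in CEBPB cells at 2638 ± 612 against 1240 ± 339 units (adjusted p = 0.00623). Cnn2, a calponin, was 1.51-fold higher (adjusted p = 0.0115), the 1 called of 16 contractile genes, and was lost without CEBPA replicate 2 (0.0738) or CEBPB replicate 3 (0.0894).

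**Figure D3:**
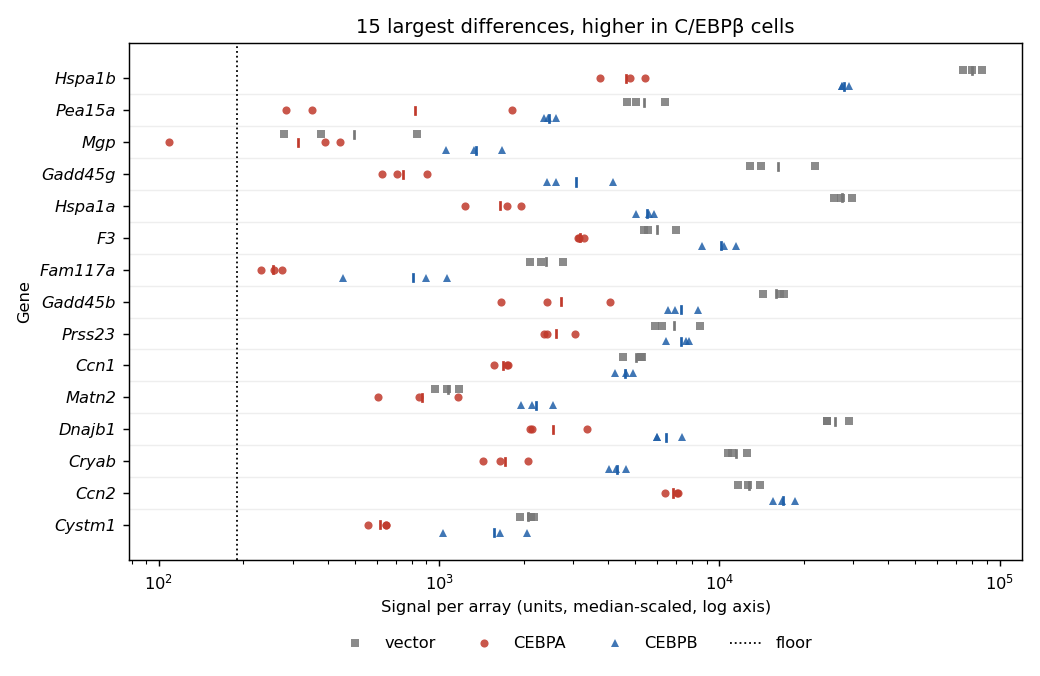
Signal of each array (median-scaled units, log axis) for the 15 genes with the largest called differences towards CEBPB cells, in vector (grey squares), CEBPA (red circles) and CEBPB (blue triangles) cells, with short vertical bars at the group means and a dotted line at the floor of 189.652 units. The blue triangles lie to the right of all red circles in every gene. The grey squares lie furthest right for Hspa1b, Pea15a, Gadd45g, Hspa1a, Fam117a, Gadd45b, Dnajb1 and Cryab. They lie left of the blue triangles for Mgp, F3, Matn2 and Ccn2.

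The CEBPD and CEBPE arrays place these levels in the family. They share the vector level as their reference, and no difference among them was tested here. Cd1d1 read 1257 to 1392 units in CEBPD cells and 268 to 583 in CEBPE cells, so that CEBPD cells came after CEBPA cells and above the 507 to 598 of CEBPB cells, and CEBPB and CEBPE overlapped. Lpl followed with 1351 to 1998 units in CEBPD cells and 783 to 1218 in CEBPE cells, the latter overlapping CEBPB cells. Hp read 4297 to 5909 units in CEBPD cells, overlapping CEBPB cells, and 2235 to 2789 in CEBPE cells. Pparg and Tgm3 had at most 409 and 614 units on any CEBPD or CEBPE array. Both passed the signal filter through CEBPA arrays alone, which already means that all other arrays lay under it. That CEBPA cells stood alone for these genes is thus no separate result. Abhd5 read 6527 to 9418 units in CEBPE cells, between CEBPB and CEBPA cells. Other genes higher in CEBPA than in CEBPB cells were not particular to CEBPA cells. Slfn2 in CEBPE cells (1170 to 1931 units) and Abca1 in CEBPD cells (921 to 1300) overlapped CEBPA cells. For Ptx3 and Cxcl1 the CEBPE means (16576 and 17541) lay above those of CEBPA cells (11204 and 12445).

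Genes with more signal in CEBPB cells fell into other orders. Hspa1b read 60223 to 72441 units in CEBPD cells, under the lowest vector array, and 3095 to 4039 in CEBPE cells, overlapping CEBPA cells. Gadd45g gave 12871 to 16950 units in CEBPD cells, overlapping vector cells, and 430 to 879 in CEBPE cells, again overlapping CEBPA cells. In both genes CEBPB cells lay between. F3 read 4429 to 5225 units in CEBPD cells and 5879 to 7893 in CEBPE cells, and the 3 CEBPB arrays were the highest of all 15. The same held for Ccn2, with 9530 to 11768 units in CEBPD cells and 10433 to 13558 in CEBPE cells, and for Matn2, with 893 to 986 and 1422 to 1913.

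Several pathways gave no call between the factors. Over all genes tested only 2.77% were called, so 0 calls in lists this small lies near that share. With limma 0 of 48 oxidative phosphorylation genes were called (2 passed an unadjusted 0.05, median 0.12), and 0 of 34 proteasome subunits (0 passed, median 0.04). The zinc-responsive metallothionein Mt2 read 83022, 96192 and 124233 units in CEBPA cells and 81396, 96133 and 85559 in CEBPB cells, which overlapped (log2 -0.19, SE 0.16, adjusted p = 0.775). Of the 9 tested metallothionein and zinc transport genes, none was called by limma and 0 had an unadjusted p under 0.05. Id proteins and TGF-β signalling, with 17 genes tested, had 0 called and 2 at an unadjusted p under 0.05, with Id3 at 0.66 (adjusted p = 0.132) and Id1 at -0.13. A p that misses the threshold does not show that these genes were equal in both kinds of cell.

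**Figure D4:**
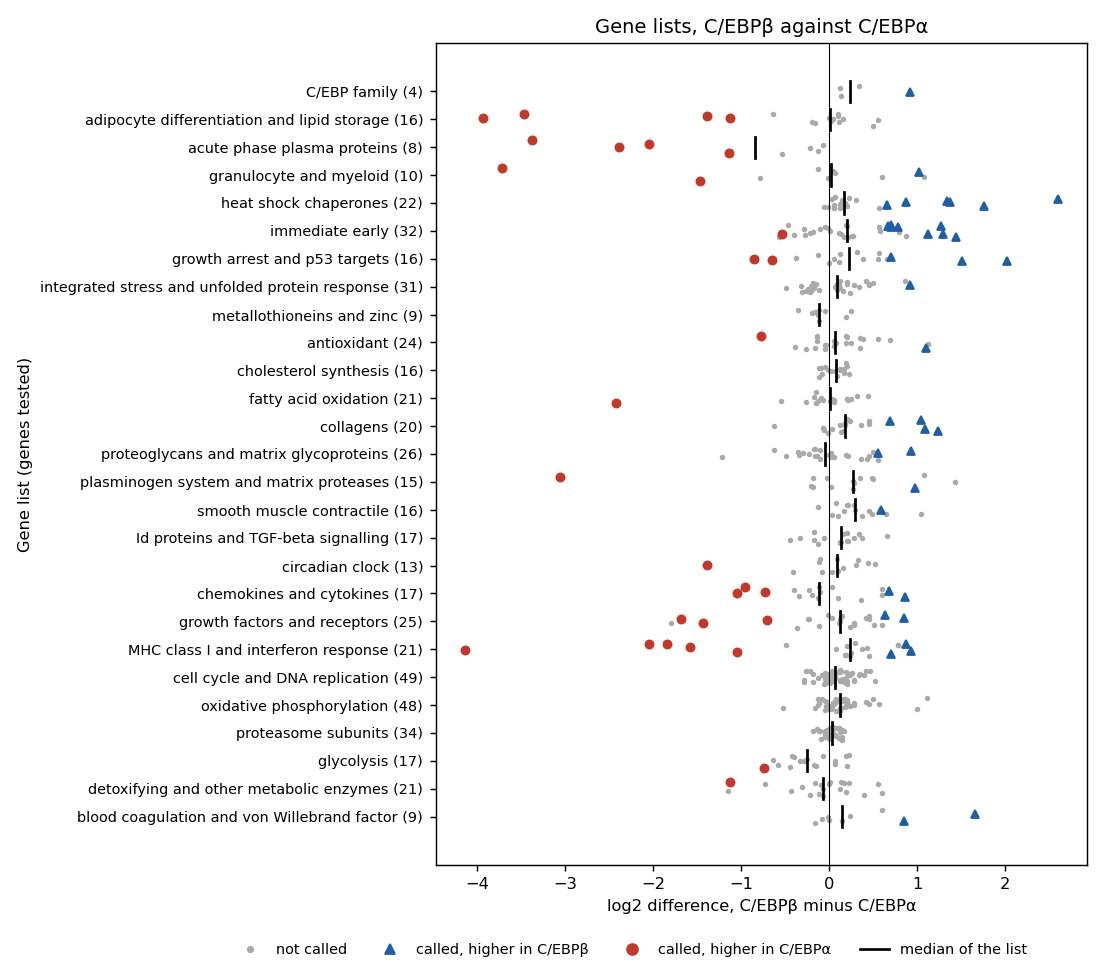
Difference between CEBPB and CEBPA cells (log2, horizontal axis) for every tested gene of the 27 lists (rows, with the number of genes tested in brackets), with called genes in colour, uncalled genes in grey and the median of each list as a black bar. Acute phase genes lie furthest left, with a median of -0.83, and heat shock chaperones have 6 called genes to the right and 0 to the left.

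Promoter letters were counted for the called genes with a RefSeq entry, in windows from 250 bases before to 50 bases after each annotated start. TTGCNNAA was found in 14 of 57 genes that were higher in CEBPA cells (24.6%) and in 4 of 58 genes that were higher in CEBPB cells (6.90%). Over the 4343 tested genes with an entry the share was 10.6%, and over all 27025 genes with an entry it was 12.2% (10.8% of their 32851 windows). The 14 genes include Pparg, Tgm3, Saa3, Ptx3, Serpinb2, Slfn2, Mgst1, Gadd45a and Cdkn2c, and the 4 are Cd68, Procr, Gbp3 and Rhox5. Pparg, Tgm3 and Serpinb2 passed the signal filter through CEBPA arrays alone. The share of the genes higher in CEBPA cells was not counted again without such genes, in this window or a shorter one. S100a8, Abhd5 and Hspa1b had an entry without these letters, which says nothing beyond the windows searched, and Lpl, Hp and Cd1d1 had no entry. GAANNTTC was found in 7 of 58 genes higher in CEBPB cells (12.1%), in 4 of 57 higher in CEBPA cells (7.02%), and in 6.98% of tested genes and 9.04% of all genes with an entry (7.86% of windows).

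The AP-1 letters TGANTCA were in 15.5% of genes higher in CEBPB cells, 8.77% of those higher in CEBPA cells, 6.56% of tested genes and 8.97% of all genes with an entry (7.81% of windows). In the 150 bases nearest the start the order of the first 2 shares turned, with 6.90% and 8.77%. CCAAT, the box bound by other factors than the family named after it, was in 51.7%, 45.6%, 43.9% and 41.1% of the same sets of genes (37.4% of windows). No 2 of these motifs overlapped in the windows of called genes. Genes with several annotated starts, 19 of the 115 called genes with an entry, have more than 1 window and so more chances of a match. The shares are given as counts, without a test.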

How the data were processed

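RNA from 15 cultures was measured on Affymetrix MG_74Av2 arrays, which carry oligonucleotide probe sets for mouse genes, with 3 arrays in each of 5 groups taken from the titles. The deposited file gives 1 linear intensity for each probe set and array. Per the labels the authors computed them in Microarray Suite version 5, and the values show a common trimmed mean on all arrays. They carry no counts and no detection calls, so the number of arrays limits the precision, and the labels' filter on absent calls was replaced by one on signal.

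The 66 control probe sets among 12488 were dropped. Each array was scaled to the mean of the array medians (1092.06 units), values below the pooled 20th percentile were set to that percentile, and the log2 was used. Probe sets above the pooled median on at least 3 of the 15 arrays were tested. limma 3.58.1 in R 4.3.3 fitted 1 coefficient per group over the 15 arrays (lmFit, eBayes with a trend), so that all groups share the spread. CEBPB minus CEBPA was tested two-sided, adjusted by Benjamini-Hochberg over 6963 probe sets, and called at 0.05. SE is the standard error that the fit gives a log2 difference, and SD is taken over 3 arrays. Means and SD are of signals before the floor. The fit was tested on simulated data.

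Probe sets were named from the array's annotation, where 10833 named 1 gene, 396 several and 1193 none. Each gene is represented by the brightest tested probe set naming it alone. Named genes are the C/EBP family, the 15 largest called differences each way without overlap of the arrays, and up to 4 members from each of 27 lists by smallest p. Other list members, and the checks of the filter, of the marker sum without S100a8 and of further probe sets, were chosen after values were seen. The comparison, the lists and the tests were chosen with earlier results of these data known. Replicate numbers were not taken to pair the samples in the main fit, which leaves deviations shared by a number in the spread. Alternatives were other scalings, floors and filters, no trend, array weights, an unmoderated test, fewer groups in the fit, a replicate block and leaving out arrays.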

Additional observations from a re-analysis of the deposited data

How the results depend on the processing

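Under the 20 alternatives none of the 199 called probe sets changed sign where tested, which was 195 of them under the filter on the 6 CEBPA and CEBPB arrays. Their CEBPA and CEBPB arrays did not overlap, so only the other scalings could have turned a sign. The constant sign is therefore little evidence of robustness. Of the 148 called genes, 71 stayed past the threshold under all 20 and 77 were lost under at least 1. Quantile normalization called 299 probe sets (149 higher in CEBPB cells, 150 lower), array weights 434 (238 and 196, with a weight of 4.49 on CEBPB replicate 3), and the replicate number as a block 347 (190 and 157), all 199 among them. The block lost no call. Deviations of same-numbered CEBPA and CEBPB arrays correlated at 0.442 for number 1, 0.153 for number 2 and -0.078 for number 3. Those of differently numbered CEBPA and CEBPB arrays ran from -0.435 to 0.304 (6 pairs). Over all 10 pairs of groups, arrays numbered 1 correlated from 0.247 to 0.503, arrays numbered 2 from 0.021 to 0.504 and arrays numbered 3 from -0.078 to 0.134. Arrays numbered 1 against arrays numbered 2 ran from -0.498 to -0.116. In 2 pairs of groups every same-numbered pair exceeded 0.1. Deviations from a mean of 3 arrays sum to 0 within a group, so the negative values of number 1 against 2 are no separate sign. Arrays numbered 1 shared part of their deviations across groups. For number 2 the pairs with CEBPA arrays gave at most 0.154 and the pairs of other groups 0.343 to 0.504, which the same sum constrains. Whether the numbers mark a common batch was not tested. Leaving out 1 CEBPA or CEBPB array at a time gave 149 to 195 calls, 62 to 110 higher and 75 to 96 lower, the 62 being without CEBPB replicate 2. Without the arrays numbered 1, which leaves 2 arrays a group, 135 were called, 73 higher and 62 lower. The count with no further scaling was 278 and with the median ratio to the mean array 242, and the share called higher was 47.1% to 49.8% over the scalings against 48.2%. Other floors gave 197 to 225, no filter 196, the unmoderated test 185 and the fit of only the CEBPA and CEBPB arrays 168. In the 150 bases nearest the start TTGCNNAA was in 14.0% of genes higher in CEBPA cells, 3.45% of those higher in CEBPB cells and 5.09% of tested genes, where a shorter window holds fewer matches of any kind. Dim genes are limited by the floor, under which differences were not measured.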

Other observations

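Of the 148 called genes, 82 were in none of the lists, 40 higher in CEBPB cells and 42 lower. Those described here were chosen after their values were seen, among genes called under all 20 alternatives. Lmo7, a LIM-domain protein of cell junctions, read 8771, 6360 and 7975 units in CEBPA cells and 2041, 2414 and 2629 in CEBPB cells (adjusted p = 2.03e-06 by limma), and vector cells lay nearer the latter, from 2981 to 3493. Hmgn5, a nucleosome-binding protein, read 9767, 10237 and 10583 units against 3653, 3533 and 3760 (adjusted p = 6.54e-06). A pair of enzymes that activate hormones inside the cell was higher in CEBPA cells. Dio2, the deiodinase that makes active thyroid hormone, read 3865, 5200 and 4526 units against 1718, 1816 and 1495 (adjusted p = 4.52e-05). Hsd11b1, which regenerates active glucocorticoid, read 2852, 3582 and 3182 against 1292, 949 and 1632 (adjusted p = 0.000648). Rgs2, a regulator of G protein signalling, read 5056, 3822 and 3930 units in CEBPA cells, 1858, 1639 and 1812 in CEBPB cells and 4466 to 4618 in vector cells (adjusted p = 0.000229).

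Oxidative folding and redox genes included Ero1a, the oxidase of the endoplasmic reticulum, with 15078, 14107 and 16510 units in CEBPA cells against 7722, 7177 and 7332 in CEBPB cells (adjusted p = 0.000491), and Glrx, glutaredoxin, with 6861, 7526 and 7836 against 2953, 3521 and 3654 (0.000155). Anxa1, an annexin with anti-inflammatory action, read 57325, 64734 and 71761 units against 36991, 39941 and 38636 (adjusted p = 0.00124). On the other side, Ankrd1, a nuclear ankyrin repeat protein and a common readout of mechanical signalling, read 6974, 7028 and 6682 units in CEBPA cells and 11826, 12742 and 11688 in CEBPB cells (adjusted p = 0.000564). Capn6, a calpain without protease activity, read 4001, 4132 and 4156 against 8075, 6802 and 7316 (adjusted p = 0.000195), and the CEBPB arrays were above all vector arrays, which reached 5384. Psph, the last enzyme of serine synthesis, read 4994, 5845 and 5479 against 7944, 9186 and 9165 (adjusted p = 0.000935), both under vector cells at 13809 to 14316.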
